A study of Mus musculus with 10 samples.

Results

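The transcripts of the zinc finger factor EGR1 and of 9 Krüppel-like factors (KLFs) were followed in mouse liver 12 h after partial hepatectomy, in which the left lateral and median lobes are removed and the remaining liver regrows. The genes were taken by symbol from the deposited count table and were Egr1, Klf2, Klf3, Klf4, Klf6, Klf9, Klf10, Klf11, Klf13 and Klf15, which are 10 of its 23056 rows. The table held 10 bulk poly(A) RNA-seq libraries, 4 from Ifrd1 knockout livers (KO) and 6 from wild-type livers (WT). Both genotypes had undergone the same operation and were sampled at the same time, so neither group gives an unoperated baseline. The labels give the genotypes only as IFRD1-KO and WT; the strain, age, sex, allele and the cells carrying the deletion are not stated. Ifrd1 encodes a transcriptional co-regulator, and the stated aim was to examine its role in the regenerating liver.

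EGR1 and the KLFs are DNA-binding proteins of the same zinc finger class. EGR1 is made rapidly and briefly after growth signals and binds GC-rich promoter elements, while KLFs bind GC boxes and CACCC boxes and act as activators or repressors depending on the member. In liver, EGR1 and KLF6 belong to the early response to injury and to mitogens, KLF9 and KLF15 respond to glucocorticoids, and KLF10 and KLF11 were found as genes induced early by TGF-beta. KLF2 and KLF4 are best known in endothelium, where blood flow raises them.

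The libraries held 12675838 to 17098012 counts in KO and 12307446 to 14340623 counts in WT. Ifrd1 itself was at 13.0, 22.6, 20.8 and 21.6 CPM, the counts scaled to a common library size in KO libraries 1 to 4, against 40.2 to 81.7 CPM in WT libraries, a log2 fold change of -1.59 with SE 0.23 and a Benjamini-Hochberg adjusted p of 0.0258 by the quasi-likelihood test of edgeR. That call was lost in 6 of the 10 fits that left out 1 library (every KO library, WT 1 and WT 5; adjusted p 0.0521 to 0.132). WT 4 stood apart from the other WT libraries: on the first principal component of all genes it lay at 40.1, beside the KO libraries at 42.2 to 46.8, while the other WT libraries lay between -79.3 and -11.8. WT 5 and WT 6 stood apart from the rest on the second component, at 44.0 and 47.1. Because nothing ties a library to an animal, p-values here measure only the spread between libraries. In pieces of whole liver, fewer cells of a type and less RNA per cell cannot be told apart.

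None of the 10 factors was called between the genotypes at an adjusted p under 0.05 by the edgeR test, beside 1.33% of the 13688 genes tested (0.767% lower and 0.563% higher in KO). All 10 passed the filter on low counts. At an unadjusted p under 0.05 there were 4, namely Egr1, Klf3, Klf6 and Klf13, all with negative log2 fold changes, beside 26% of all genes (14.4% lower in KO). By limma-voom 0 were called (2.32% of all genes, 0.636% lower in KO) and 3 had an unadjusted p under 0.05, beside 26.7% of all genes. DESeq2 called 2, Klf6 (adjusted p = 0.000157) and Klf13 (0.0426), beside 11.8% of all genes (7.59% lower in KO), and edgeR without its robust prior called Klf6 alone (0.0467; 1.43% of all genes, 0.862% lower in KO). The log2 fold change was below 0 for 8 of the 10 factors, beside 51.6% of all genes, and the median was -0.38 for the 10 factors and -0.02 for all genes tested. Klf6 was the only factor whose KO and WT libraries did not overlap, beside 6.9% of all genes.

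The comparison depended on WT 4. Without it, Klf6, Egr1 and Klf13 were lower in KO by the edgeR test, at adjusted p values of 0.00201, 0.0377 and 0.0320, which was 3 of 10 factors beside 21.4% of all genes (10.9% lower in KO). WT 4 was nearer to the average of the KO libraries than to that of the remaining WT libraries for 10 of 10 factors, as for 69.7% of all genes. It lay within the KO range for 7 factors and for 57.0% of all genes, and it had the lowest WT level of Egr1, Klf4 and Klf6. No label gives WT 4 another genotype or treatment, and its Ifrd1 level of 49.6 CPM was above every KO library.

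**Figure D1:**
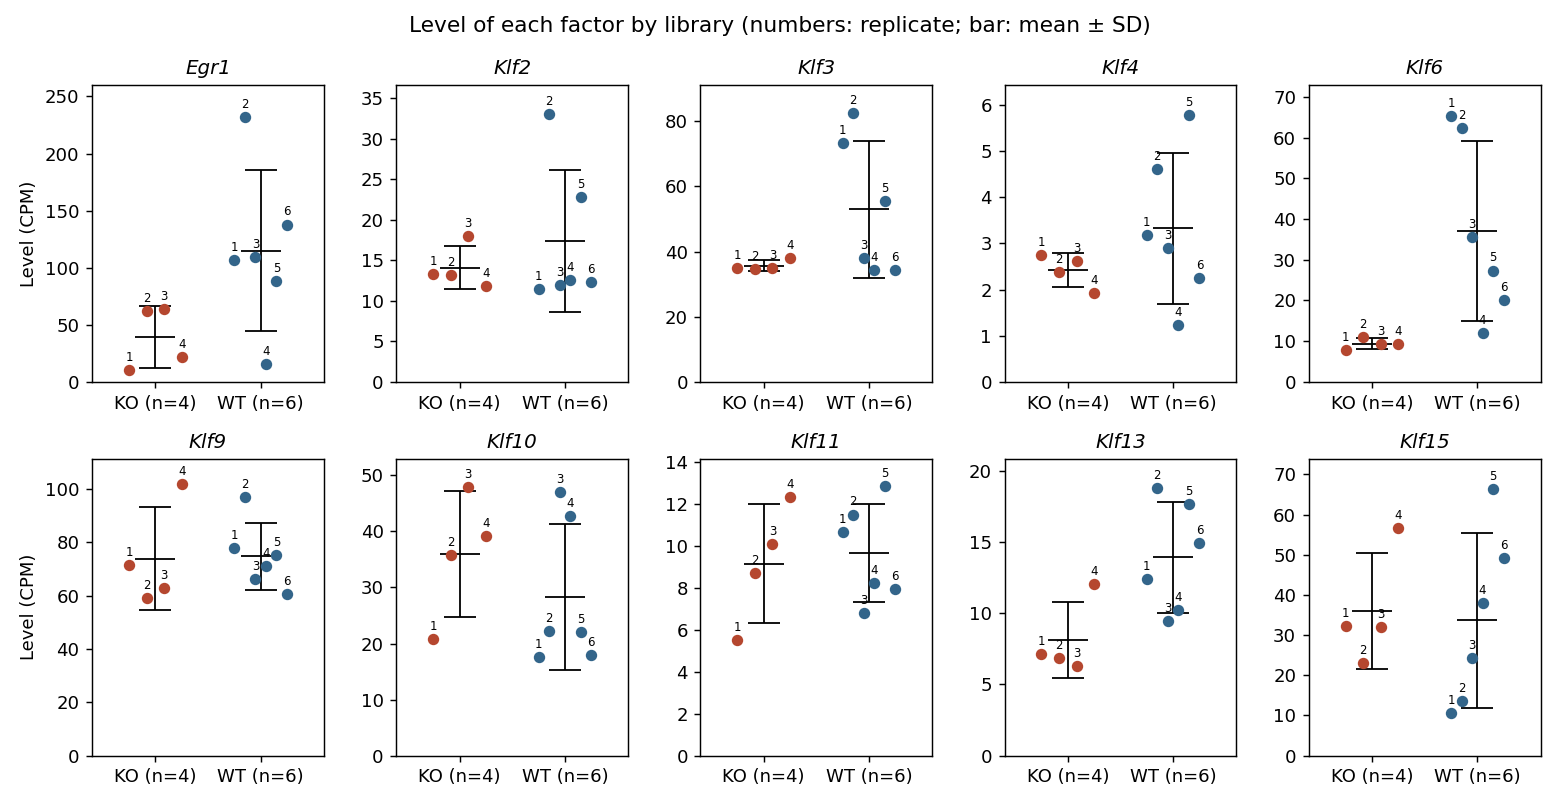
Level of each factor by library in CPM, 1 panel a gene with its own axis from 0; KO libraries stand left of WT libraries, numbers are replicates, and the horizontal line with its bar is the mean ± SD. Klf6 lies between 7.78 and 11.02 CPM in KO, below all WT libraries, and WT 4 is the WT library nearest to KO.

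**Figure D2:**
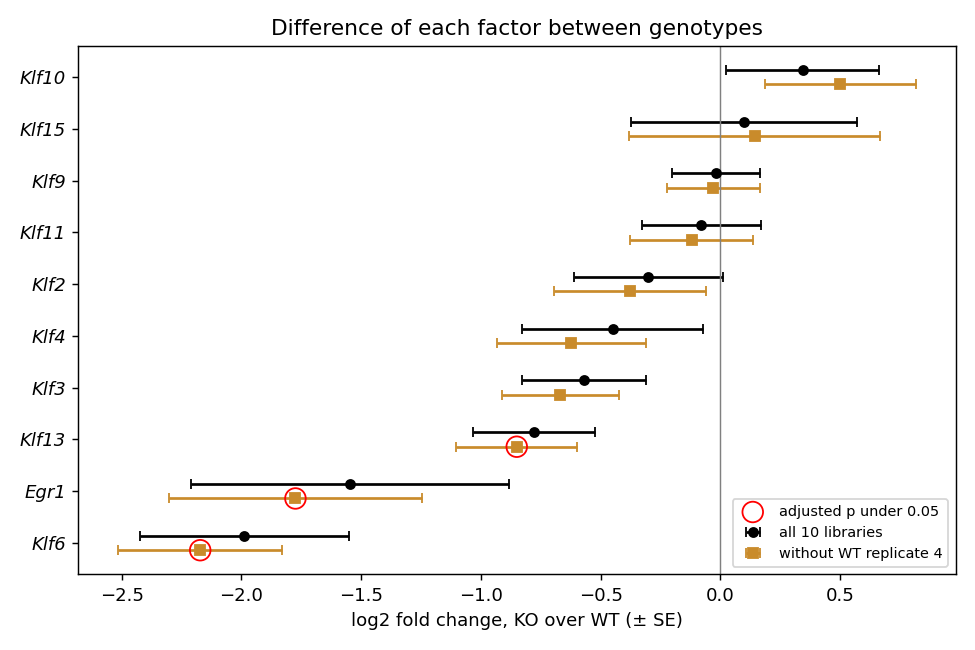
Log2 fold change of each factor, KO over WT, ± SE, fitted on all 10 libraries (black circles) and without WT replicate 4 (ochre squares). Red rings mark an adjusted p under 0.05, which Klf6, Egr1 and Klf13 have only in the fit without WT replicate 4.

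The promoters of the 2 factors that DESeq2 called, Klf6 and Klf13, are printed below with those of Klf3, whose KO levels were the most even, and Klf15, whose WT levels were uneven. They run from 250 bases before to 50 bases after the RefSeq transcription start in GRCm38.p6, and capitals mark GC boxes (GGGCGG) and CACCC boxes on either strand, which can overlap. RefSeq entries matched 8 of the 10 factors. Egr1 and Klf10 were not among them.

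Klf6, chr13:5861239-5861538, plus strand: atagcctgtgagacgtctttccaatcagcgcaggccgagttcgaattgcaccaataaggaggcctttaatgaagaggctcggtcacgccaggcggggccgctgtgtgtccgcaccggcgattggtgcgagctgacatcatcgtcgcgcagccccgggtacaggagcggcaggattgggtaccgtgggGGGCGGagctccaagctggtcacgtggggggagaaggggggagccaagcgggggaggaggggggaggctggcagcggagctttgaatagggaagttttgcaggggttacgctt
Klf13, chr7:63938866-63939165, minus strand: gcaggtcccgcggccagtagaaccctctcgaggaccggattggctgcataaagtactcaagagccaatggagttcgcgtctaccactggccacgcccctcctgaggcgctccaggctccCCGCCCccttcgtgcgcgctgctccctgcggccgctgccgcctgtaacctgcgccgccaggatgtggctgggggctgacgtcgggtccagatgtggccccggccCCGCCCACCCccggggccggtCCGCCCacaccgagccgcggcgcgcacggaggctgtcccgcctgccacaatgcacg
Klf3, chr5:64803271-64803570, plus strand: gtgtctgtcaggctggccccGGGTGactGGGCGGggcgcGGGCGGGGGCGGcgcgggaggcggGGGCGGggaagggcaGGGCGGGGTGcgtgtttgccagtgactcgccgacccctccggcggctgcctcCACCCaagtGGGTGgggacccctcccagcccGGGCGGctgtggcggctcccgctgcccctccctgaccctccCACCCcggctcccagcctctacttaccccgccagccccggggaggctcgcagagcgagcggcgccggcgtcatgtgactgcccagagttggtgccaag
Klf15, chr6:90462326-90462625, plus strand: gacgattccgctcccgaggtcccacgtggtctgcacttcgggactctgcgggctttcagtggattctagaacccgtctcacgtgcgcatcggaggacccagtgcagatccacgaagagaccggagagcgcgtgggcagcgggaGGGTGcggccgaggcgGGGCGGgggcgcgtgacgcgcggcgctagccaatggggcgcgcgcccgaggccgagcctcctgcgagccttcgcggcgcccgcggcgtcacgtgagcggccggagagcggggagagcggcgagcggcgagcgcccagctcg

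The Klf3 promoter was the densest of these, with 6 GC boxes and 5 CACCC boxes. Klf13 had 3 GC boxes and 1 CACCC box, the middle GC box running into the CACCC box as CCGCCCACCC. Klf15 had 1 of each, and Klf6 had a single GC box, which begins at position -63 from the start. A GC box was present in 7 of the 8 factor promoters and in 35.7% of 32851 mouse promoters of the same length, and a CACCC box in 5 of 8 and in 57.5%. The sequence GCGNGGGCG, recognised by EGR1, was found on either strand in 4 of the 8 (Klf2, Klf3, Klf4 and Klf15) and in 5.55% of all promoters. Its matches can overlap GC boxes. The E-box CACGTG, bound by clock proteins and by MYC, was in 4 of the 8 (Klf4, Klf6, Klf11 and Klf15) and in 7.15% of all promoters. Klf15 had 3 copies, the nearest at position -3, and Klf6 had 1 at position -43. GC content was 63% for Klf6, 72% for Klf13, 76.7% for Klf3 and 73.3% for Klf15. These lay above the median of 52.7% and the upper quartile of 61.7% over all promoters. The 32851 promoters were not matched to the factors for GC content. How much of the motif shares follows from base composition was not tested. A match describes letters in the window and not a bound site.

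Klf6 had the largest difference of the 10 factors. KLF6 is a transcriptional activator that activated stellate cells make in injured liver, and its gene lies at chr13:5861482-5870394 (GRCm38, GENCODE M21). It was at 7.78, 11.02, 9.37 and 9.33 CPM in KO libraries 1 to 4, against a lowest level of 12.0, a median of 31.5 and a highest level of 65.3 CPM in WT libraries. The KO libraries were within 1.42-fold of each other and all lay below every WT library, of which WT 4 was lowest and WT 1 (65.3) and WT 2 (62.4) were highest. The means were 9.37 ± 1.32 CPM in KO and 37.1 ± 22.1 CPM in WT (SD, n = 4 and 6), 3.97 times as high in WT. Its log2 fold change was -1.99 (SE 0.44, 95% interval -2.94 to -1.03, adjusted p = 0.0513), and the gene ranked 192 of 13688 by p. The two-sided exact permutation test on log2(CPM + 0.5) gave p = 0.0143, where 210 arrangements allow no p under 0.00476. Without WT 4 the WT mean was 42.2 ± 20.6 CPM and KO over WT was -2.17 on the log2 scale (SE 0.34, adjusted p = 0.00201). Without WT 1 and WT 2, an alternative chosen after the values were seen, the WT mean was 23.8 ± 10.03 CPM and the log2 fold change was -1.35 (adjusted p = 0.0998).

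On the log2 scale, Egr1 varied most of the 10 factors from library to library within both genotypes. EGR1 is an immediate early activator, and its gene lies at chr18:34859823-34864984. It was at 10.1, 61.7, 63.9 and 22.2 CPM in KO libraries 1 to 4, against a lowest level of 15.9, a median of 108 and a highest level of 232 CPM in WT libraries. WT 4 was the lowest WT library and lay within the KO range; the other 5 WT libraries, from 88.3 CPM upward, lay above all KO libraries. The highest library was 6.33 times the lowest in KO and 14.6 times the lowest in WT. The means were 39.5 ± 27.4 CPM in KO and 115 ± 70.5 CPM in WT (SD, n = 4 and 6). KO over WT gave a log2 fold change of -1.55 (SE 0.66, 95% interval -3.002 to -0.09, unadjusted p = 0.0395, adjusted p = 0.171), and the exact permutation p was 0.105. Without WT 4, the WT mean was 135 ± 57.1 CPM and KO over WT was -1.77 on the log2 scale (SE 0.53, adjusted p = 0.0377).

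Macrophage transcripts also varied between libraries. The summed level of 12 Kupffer cell and monocyte markers was 52.9 to 88.7 CPM in KO and 67.8 to 830 CPM in WT libraries. None of its 11 tested markers was called and 10 had a log2 fold change below 0 (median -0.95), beside 51.6% of all genes. Cd14, a receptor for bacterial lipopolysaccharide, was at 2.23 to 8.71 CPM in KO and 11.8 to 522 CPM in WT. It held most of the sum only in WT 1 (217 of 314 CPM) and WT 2 (522 of 830 CPM). With Cd14 left out, a choice made after the values were seen, the sum was 47.6, 74.4, 84.8 and 68.3 CPM in KO libraries 1 to 4, against 96.4, 308, 72.9, 55.9, 139 and 167 CPM in WT libraries 1 to 6. WT 4 was the lowest WT library for this sum, as it was for Egr1 and Klf6, and WT 2 was highest for the sum and for Egr1. For Egr1 the order was otherwise close to that of the sum. The KO libraries rose as KO 1, KO 4, KO 2 and KO 3 in both, WT 6 came next below WT 2 in both, and WT 3 and WT 5 changed places. For Klf6 the order of the WT libraries other than WT 4 differed. WT 5 and WT 6 had higher sums than WT 1 and WT 3. Their Klf6 was lower, at 27.4 and 20.2 CPM against 65.3 and 35.5 CPM. Egr1 was lower in WT 5 (88.3 CPM) than in WT 1 and WT 3 (107 and 109 CPM), while WT 6 (138 CPM) was above them. KO 2 and KO 3 had higher sums than WT 3 and lower Egr1, at 61.7 and 63.9 CPM. Of the defining markers Clec4f, Vsig4, Timd4, Marco and Adgre1, none was at 0 in any library. Ly6c2 of the same list, which was under the filter on low counts, was at 0 in 2 WT libraries. The summed neutrophil markers were at 6.69 to 17.6 CPM in KO and 10.3 to 184 CPM in WT, with Mpo at 0 in 4 KO and 5 WT libraries and Ly6g at 0 in 3 of each. The part of macrophage or neutrophil RNA in the Egr1 and Klf6 levels was not tested.

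**Figure D3:**
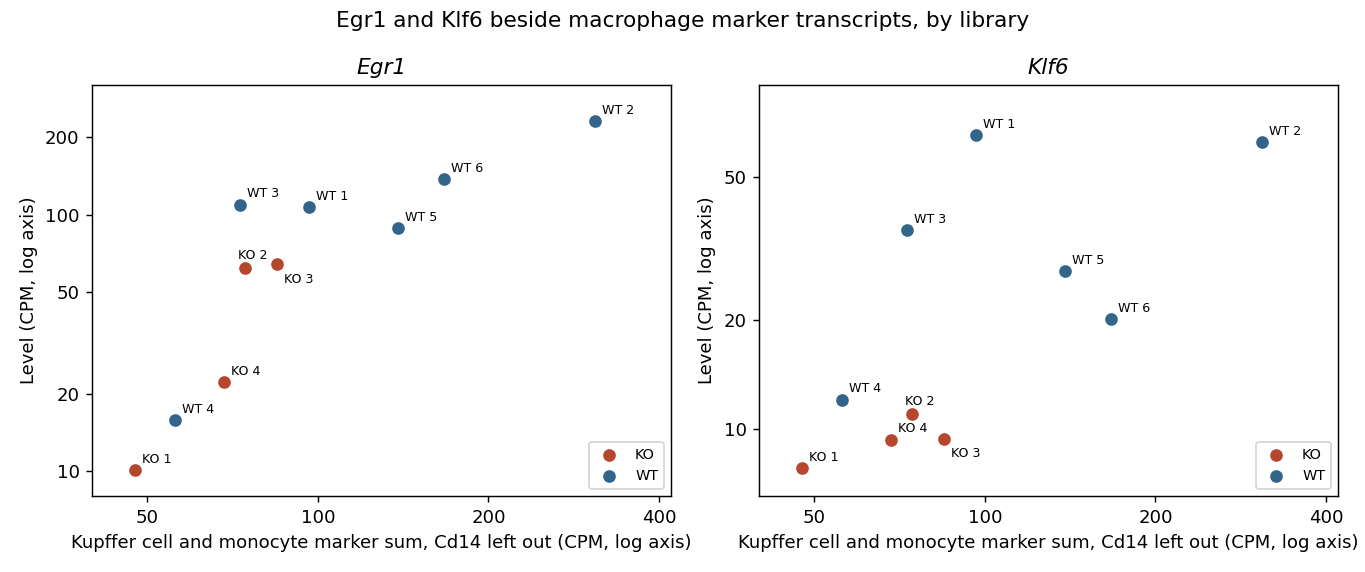
Levels of Egr1 (left) and Klf6 (right) in CPM against the summed level of Kupffer cell and monocyte markers without Cd14, both axes logarithmic, 1 point a library with KO in red and WT in blue. In both panels WT 4 (sum 55.9 CPM, Egr1 15.9 and Klf6 12.0 CPM) sits near the KO libraries, and WT 2 has the highest sum (308 CPM, Egr1 232 and Klf6 62.4 CPM).

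Klf3 and Klf13 were the other factors with an unadjusted p under 0.05. KLF3 is a repressor that recruits the CtBP co-repressors, and its gene lies at chr5:64803388-64832901. It was at 35.0, 34.7, 35.0 and 38.1 CPM in KO libraries, against a lowest level of 34.2, a median of 46.9 and a highest level of 82.6 CPM in WT libraries. The KO libraries were within 1.10-fold of each other; WT 3, WT 4 and WT 6 (38.1, 34.4 and 34.2 CPM) were level with them, while WT 1, WT 2 and WT 5 (73.2, 82.6 and 55.6 CPM) were higher. The means were 35.7 ± 1.61 CPM in KO and 53.05 ± 21.03 CPM in WT, with a log2 fold change of -0.57 (SE 0.26, 95% interval -1.13 to -0.01, adjusted p = 0.187, exact permutation p = 0.181). Without WT 1 and WT 2 the log2 fold change was -0.19 (adjusted p = 0.599).

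KLF13 is a basic transcription element binding factor known for its role in lymphocytes, and its gene lies on the minus strand at chr7:63886351-63938915. It was at 7.17, 6.86, 6.30 and 12.1 CPM in KO libraries, against a lowest level of 9.48, a median of 13.7 and a highest level of 18.8 CPM in WT libraries. KO 4 lay among the WT libraries and the other 3 KO libraries lay below all of them. The means were 8.10 ± 2.67 CPM in KO and 13.9 ± 3.88 CPM in WT, with a log2 fold change of -0.78 (SE 0.26, 95% interval -1.33 to -0.22, adjusted p = 0.0975, exact permutation p = 0.0286). Without WT 4 it was -0.85 (SE 0.25, adjusted p = 0.0320). The annotated Klf13 gene overlaps 2 genes of the opposite strand. Of these, Gm27252 averaged 9.77 ± 3.13 CPM in KO and 47.5 ± 33.9 CPM in WT (log2 fold change -2.28, SE 0.60, adjusted p = 0.0670), and E030018B13Rik averaged 42.8 ± 8.78 CPM in KO and 58.9 ± 30.2 CPM in WT (adjusted p = 0.489). These overlaps were read from whole-gene spans, and whether exons overlap was not checked. The strand setting of the counting is not given in the sources used here, so the Klf13 values are uncertain. Without strand, reads from any exon positions shared with these partners could not be told apart. Klf3 overlaps Gm20033 on the opposite strand and C230096K16Rik on its own, which averaged 0.892 and 2.09 CPM in KO and 1.41 and 1.22 CPM in WT.

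The endothelial factors Klf2 and Klf4 overlapped between genotypes. Klf2, at chr8:72319033-72321656, encodes a flow-induced factor that keeps endothelium quiescent; it was at 13.3, 13.3, 18.0 and 11.8 CPM in KO libraries, against a lowest level of 11.4, a median of 12.5 and a highest level of 33.0 CPM in WT libraries. Apart from WT 2 and WT 5 (33.0 and 22.8 CPM), all libraries lay between 11.4 and 18.0 CPM. For Klf2 this amounted to a log2 fold change of -0.30 (SE 0.31, 95% interval -0.97 to 0.37, adjusted p = 0.566). Klf4, at chr4:55527143-55532466 on the minus strand, encodes a factor of endothelium and epithelium that is also one of the classical reprogramming factors. It was at 2.76, 2.39, 2.61 and 1.93 CPM in KO libraries, against a lowest level of 1.22, a median of 3.04 and a highest level of 5.78 CPM in WT libraries. WT 4 and WT 5 were the lowest and the highest of all 10 libraries. The log2 fold change was -0.45 (SE 0.38, 95% interval -1.27 to 0.37, adjusted p = 0.470), and the lowest level rests on 18 counts, whose exact Poisson 95% interval of 0.726 to 1.94 CPM covers counting error only. Endothelial marker sums were 235 to 365 CPM in KO and 196 to 370 CPM in WT libraries. Of 8 tested genes described as targets of KLF2 and KLF4 none was called; the median log2 fold change was -0.08, and Thbd, the anticoagulant receptor thrombomodulin, was at 10.9 ± 0.823 CPM in KO and 34.4 ± 18.9 CPM in WT (log2 fold change -1.66, adjusted p = 0.0546).

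The glucocorticoid-responsive factors Klf9 and Klf15 had similar means in both genotypes, with intervals that spanned 0. Klf9, at chr19:23141226-23168134, encodes a factor induced by glucocorticoid and thyroid hormone; it was at 71.6, 59.1, 62.8 and 102 CPM in KO libraries, against a lowest level of 60.7, a median of 73.3 and a highest level of 97.2 CPM in WT libraries. The groups overlapped over most of their ranges, and KO 4 was the highest library. Its log2 fold change was -0.02 (SE 0.18, 95% interval -0.42 to 0.38, adjusted p = 0.963), with a sign that turned without KO 2 (0.08), KO 3 (0.06) or WT 2 (0.07) and under upper-quartile scaling (0.02). It was one of the 3 factors, with Klf11 and Klf13, whose spread on the log2 scale was not larger among WT than among KO libraries; the spread was larger among WT libraries for 80.6% of all genes.

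Klf15, at chr6:90462576-90475238, encodes a regulator of hepatic amino acid breakdown and gluconeogenesis. It was at 32.2, 23.0, 32.0 and 56.7 CPM in KO libraries, against 10.6, 13.5, 24.2, 38.0, 66.3 and 49.2 CPM in WT libraries 1 to 6. All KO libraries lay inside the WT range, which spanned 6.23-fold. WT 1 and WT 2, the highest WT libraries for Klf6, were the lowest for Klf15. WT 5 and WT 6, which stood apart on the second component, were the highest. Its log2 fold change was 0.10 (SE 0.47, 95% interval -0.94 to 1.13, adjusted p = 0.917); it was 0.74 without WT 5 and WT 6 (adjusted p = 0.295, WT mean 21.6 ± 12.4 CPM), and it turned to -0.30 without WT 1 and WT 2 (adjusted p = 0.662, WT mean 44.4 ± 17.8 CPM). It also turned negative without KO 4 (-0.20), WT 1 (-0.09) or WT 2 (-0.07).

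Klf10 and Klf11 encode TGF-beta-inducible repressors, and Klf10 is also controlled by the liver clock. Klf10, at chr15:38291463-38300706 on the minus strand, was at 20.9, 35.8, 47.9 and 39.1 CPM in KO libraries, against a lowest level of 17.6, a median of 22.2 and a highest level of 47.0 CPM in WT libraries. WT 3 and WT 4 (47.0 and 42.7 CPM) lay among the 3 highest KO libraries, and the other 4 WT libraries were at 17.6 to 22.3 CPM. KO over WT gave a log2 fold change of 0.34 (SE 0.32, 95% interval -0.35 to 1.04, adjusted p = 0.519). Klf11, at chr12:24651274-24662789, was at 5.52, 8.71, 10.1 and 12.3 CPM in KO libraries, against a lowest level of 6.80, a median of 9.44 and a highest level of 12.9 CPM in WT libraries. KO 1 was the lowest and WT 5 the highest library. The log2 fold change was -0.08 (SE 0.25, 95% interval -0.61 to 0.46, adjusted p = 0.868), and its sign turned without KO 1 (0.10) or WT 5 (0.02).

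**Figure D4:**
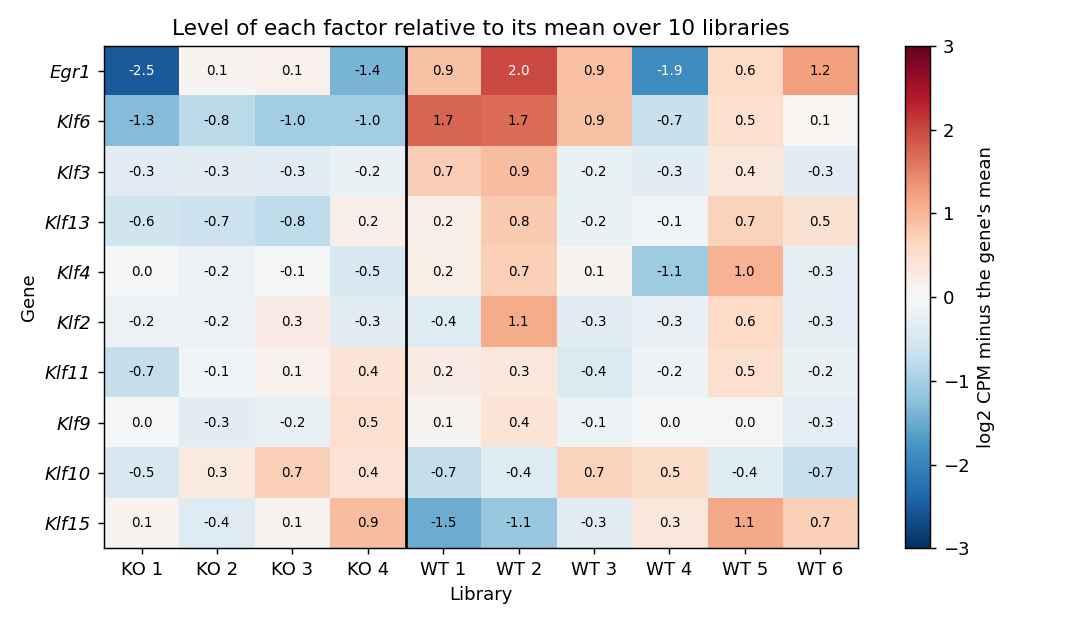
Log2 CPM of each factor minus its mean over the 10 libraries, genes in rows and libraries in columns, KO left of the black line and WT right of it. Egr1 ranges from -2.5 in KO 1 to 2.0 in WT 2, and the WT columns differ from each other in most rows.

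Levels were compared between the factors only per exon length, as RPKM, the CPM divided by kilobases of exon. In KO the order by mean RPKM was Klf9 (15.3 ± 4.02), Klf15 (12.9 ± 5.18), Egr1 (8.81 ± 6.11), Klf10 (8.59 ± 2.69), Klf2 (7.63 ± 1.45), Klf3 (3.18 ± 0.143), Klf6 (2.14 ± 0.301), Klf11 (2.11 ± 0.655), Klf13 (1.08 ± 0.354) and Klf4 (0.794 ± 0.119; SD, n = 4). In WT Egr1 came first at 25.7 ± 15.7 RPKM, followed by Klf9 (15.5 ± 2.62), Klf15 (12.1 ± 7.76), Klf2 (9.41 ± 4.76), Klf6 (8.46 ± 5.04), Klf10 (6.77 ± 3.12), Klf3 (4.72 ± 1.87), Klf11 (2.23 ± 0.542), Klf13 (1.85 ± 0.515) and Klf4 (1.09 ± 0.539; SD, n = 6). Most neighbours in these orders overlapped in their ranges over libraries. The exceptions were around Klf3: in KO it lay at 3.09 to 3.39 RPKM, clear of Klf2 (6.40 to 9.74) and of Klf6 (1.77 to 2.51), and in WT at 3.05 to 7.35 RPKM, clear of Klf11 (1.57 to 2.96). Klf6 stood beside Klf11 in KO and beside Klf2 and Klf10 in WT.

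The genes whose pattern over the 10 libraries was nearest to that of Egr1, by the root-mean-square difference of centred log2 CPM among 9435 genes, were Ier2 (0.561), B4galt5 (0.588) and Fos (0.598). Ier2 and Fos are immediate early genes and B4galt5 encodes a galactosyltransferase. Each gene was centred over all 10 libraries, so the difference between genotypes entered the choice. The fold changes of the chosen genes are therefore not separate evidence. Ier2 averaged 22.01 ± 7.82 CPM in KO and 54.5 ± 28.3 CPM in WT (log2 fold change -1.31, adjusted p = 0.09995), B4galt5 11.5 ± 3.56 CPM in KO and 36.0 ± 14.2 CPM in WT (-1.65, 0.0583), and Fos 5.24 ± 3.69 CPM in KO and 17.4 ± 13.1 CPM in WT (-1.74, 0.140).

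None of the tested relatives of the 10 factors was called. Egr2 averaged 0.374 ± 0.284 CPM in KO and 0.926 ± 0.371 CPM in WT (log2 fold change -1.24, adjusted p = 0.150). Nab1 and Nab2 encode co-repressors that bind EGR proteins; Nab1 was at 31.6 ± 3.37 CPM in KO and 31.6 ± 5.42 CPM in WT, and Nab2 at 15.7 ± 2.50 CPM in KO and 12.8 ± 5.61 CPM in WT (log2 fold change 0.30, adjusted p = 0.549). These 3 were named after their values were seen. Egr3 had 19 and Klf5 29 counts over all libraries and were not tested. Of 4 other tested KLF genes none was called; Klf12, a repressor, averaged 5.75 ± 0.795 CPM in KO and 1.37 ± 1.72 CPM in WT. Its groups did not overlap, with WT 4 at 4.70 CPM and the other WT libraries at 1.66 CPM or less. KO over WT was 2.04 on the log2 scale (SE 0.74, adjusted p = 0.122), and 3.01 without WT 4 (adjusted p = 0.00494). Of 5 tested SP genes, whose proteins bind the same GC boxes, none was called, and Sp5 averaged 1.71 ± 0.609 CPM in KO and 0.538 ± 0.330 CPM in WT without overlap (log2 fold change 1.66, adjusted p = 0.0689; 1.91 and 0.0126 without WT 4). None of 10 tested KLF co-factors was called (median 0.07); Fhl3, a partner of KLF3, averaged 1.15 ± 0.492 CPM in KO and 3.10 ± 1.73 CPM in WT (log2 fold change -1.44, adjusted p = 0.0883).

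SRF and the ternary complex factors regulate Egr1 and other immediate early genes. Of 6 genes tested on their list, which also holds Mrtfa and Mrtfb, 0 were called. A log2 fold change below 0 was seen for 4 (median -0.31). Elk3 averaged 6.46 ± 1.16 CPM in KO and 3.62 ± 1.51 CPM in WT (log2 fold change 0.84, adjusted p = 0.125). Elk4, named after its values were seen, averaged 35.8 ± 4.64 CPM in KO and 62.8 ± 18.9 CPM in WT (-0.81, adjusted p = 0.0701). Of 16 other immediate early genes tested, 1 was lower in KO, 0 were higher, and 14 had a log2 fold change below 0 (median -1.21). Btg2, an antiproliferative gene, was the called one, at 8.31 ± 2.56 CPM in KO and 78.9 ± 53.5 CPM in WT (log2 fold change -3.25, adjusted p = 0.0440). Of 15 genes described as EGR1 targets, 1 was lower in KO, 0 were higher and 8 had a log2 fold change below 0 (median -0.32). The called gene was Gdf15, which encodes a stress-induced hormone, at 15.7 ± 8.13 CPM in KO and 144 ± 69.0 CPM in WT (log2 fold change -3.20, adjusted p = 0.0423). Over all genes tested, 0.767% were called lower and 0.563% higher in KO, and 51.6% had a log2 fold change below 0.

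Glucocorticoid-induced genes numbered 13, of which 2 were lower in KO and 0 were higher, beside 0.767% and 0.563% of all genes. A log2 fold change below 0 was seen for 11 (median -0.80), beside 51.6% of all genes. Mt2, a metallothionein, averaged 435 ± 59.4 CPM in KO and 1717 ± 907 CPM in WT (log2 fold change -1.98, adjusted p = 0.0440). Tat, tyrosine aminotransferase, averaged 1035 ± 322 CPM in KO and 3065 ± 1067 CPM in WT (log2 fold change -1.57, adjusted p = 0.0460). Among 16 amino acid catabolism genes linked to KLF15, 2 were lower in KO, 0 were higher and 8 had a log2 fold change below 0 (median -0.01). These were Tat, which both lists hold, and Sds, serine dehydratase, at 38.2 ± 10.8 CPM in KO and 199 ± 135 CPM in WT (log2 fold change -2.38, adjusted p = 0.0468). The calls of Btg2, Tat and Sds held without WT 4 and were lost without any other single library. Those of Gdf15 and Mt2 held without WT 2 or WT 4 and were lost without any other (adjusted p 0.0521 to 0.149 over all lost calls of these 5 genes).

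None of 19 core clock and output genes was called, and 14 had a log2 fold change below 0 (median -0.39); Ciart, a clock repressor, averaged 2.17 ± 0.830 CPM in KO and 12.9 ± 11.5 CPM in WT (-2.56, adjusted p = 0.0705). None of 12 TGF-beta early response genes was called, and 7 had a log2 fold change below 0 (median -0.36). The share below 0 over all genes was 51.6%.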

How the data were processed

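Liver RNA of 4 KO and 6 WT libraries was poly(A)-selected, made into NEBNext Ultra libraries and sequenced on an Illumina NovaSeq, per the labels' protocols. The deposited values are raw counts per gene symbol. The submitters' processing notes name STAR, HTSeq, DESeq2 and mm10; the tools' versions, the gene annotation and whether counting used strand were not given in the sources used here. Genes passing edgeR's filterByExpr (13688 of 23056; 22 rows were 0 in every library) were scaled by TMM and fitted with edgeR 4.0.16's robust quasi-likelihood test in R 4.3.3, with Benjamini-Hochberg adjustment over all genes tested and a threshold of 0.05. DESeq2 1.42.0, limma 3.58.1 (voom), other scalings, filters and pseudocounts, a replicate block and left-out libraries were alternatives. A single gene was also tested by a two-sided exact permutation test over 210 arrangements of log2(CPM + 0.5), unadjusted. CPM are TMM-scaled. RPKM used exon-union lengths from GENCODE M21 (GRCm38), which held 22277 of the 23056 symbols. Promoters came from RefSeq GRCm38.p6. The test was first run on simulated data, where it called 95.8% of genes changed 4-fold and 35.4% of genes changed 2-fold (13415 genes). Simulated counts were drawn independently for each gene and library, with a spread set by the dispersion trend and no library like WT 4. These shares therefore do not give the power of the test in the real libraries.

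The factors, lists, motifs and printed promoters were chosen with earlier results of these data known. The named genes were the 10 factors, Ifrd1, up to 3 called genes of each list by p (without a call, the gene with the largest log2 fold change at 1 CPM or more), and the 3 genes nearest to Egr1 at 5 CPM or more. A gene that this rule selects is not reported here. Lists of erythroid, lymphocyte, stellate cell, cholangiocyte and hepatocyte markers were also read. Counting intervals cover counting error only.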

Additional observations from a re-analysis of the deposited data

Results flagged for a closer look

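In 70 groups of 4 or 6 libraries checked, covering both genotypes of the factors and the other named genes, 7 held a library far from the rest by Dixon's criterion at 95%. For normally distributed values, chance flags about 1 in 20 groups. Whether the CPM are normally distributed was not tested, and the groups share the same 10 libraries. The count is therefore not read as an excess. Among the 20 groups of the factors there were 2, both in KO 4: Klf3 at 38.1 CPM, with the other KO libraries at 34.7 to 35.0 CPM, and Klf13 at 12.1 CPM, with the others at 6.30 to 7.17 CPM. KO 2 stood apart for Sp5 (2.62 CPM). WT 2 stood apart for S100a8 (49.1 CPM), a neutrophil transcript. WT 1 did so for Spp1 (247 CPM), which cholangiocytes and macrophages make. WT 4 was far above the other WT libraries for Klf12 (4.70 CPM) and far below them for B4galt5 (8.57 CPM).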

How the results depend on the processing

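The count of genes called (182; 77 higher and 105 lower in KO) was 1618 by DESeq2 (579 higher, 1039 lower), 318 by limma-voom (231 higher, 87 lower), 153 under upper-quartile scaling (78 higher, 75 lower), 1 with a replicate block, 4 without WT 5 and WT 6, and 4 without WT 1 and WT 2 (chosen after seeing the data). Leaving out 1 library gave 0 to 2893, the highest without WT 4. The count of factors called (0) was 2 by DESeq2, 1 without the robust prior and 0 to 3 with 1 library left out; it was 0 with the replicate block, where same-numbered libraries did not pair (correlations 0.18, 0.07, -0.03 and -0.02; 2 of 4 KO libraries correlated best with their own number). Signs turned for Klf9 (0.024 under upper-quartile scaling, 0.11 without WT 1 and WT 2, -0.21 to 0.076 with 1 library left out), Klf11 (0.029 without WT 1 and WT 2, -0.25 to 0.10), Klf15 (-0.30 without WT 1 and WT 2, -0.20 to 0.41; 0.83 with the replicate block) and the erythroid gene Hba-a2 (-0.61 to 0.059). With 1 library left out, Klf6 stayed between -2.17 and -1.75, Egr1 between -1.88 and -1.22 and Klf13 between -1.03 and -0.67. The causes were not tested. Of 719 values of single genes under the alternatives, 597 kept their direction and side of the threshold, 28 passed it, 81 lost it and 13 turned sign. Low counts limit Klf4.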

Other observations

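Markers of other liver cells gave these values beside the factors. Fcgr2b, a sinusoidal endothelial receptor, was higher in KO, at 26.2 ± 7.57 CPM against 12.9 ± 2.53 CPM in WT (log2 fold change 1.03; 0.0440 was its edgeR quasi-likelihood p after Benjamini-Hochberg adjustment); it was the only called gene of 12 sinusoidal endothelial markers, of which 4 had a log2 fold change below 0 (median 0.23), and the call held only without WT 2 or WT 4 among the fits with 1 library left out (0.0682 to 0.137 in the others). In the same list, and named after their values were seen, Lyve1 averaged 5.70 ± 0.765 CPM in KO and 19.5 ± 15.8 CPM in WT without overlap (log2 fold change -1.77, adjusted p = 0.0642), and Cdh5 10.45 ± 2.31 CPM in KO and 20.6 ± 11.2 CPM in WT (-0.98, adjusted p = 0.104). No gene was called among 9 hepatocyte markers (median -0.07; Apoa1 0.53, adjusted p = 0.131), 5 neutrophil markers (-2.24; S100a8 -2.58, 0.106), 10 stellate cell markers (0.06; Acta2 0.85, 0.495), 5 cholangiocyte markers (-0.52; Spp1 -1.19, 0.228, and -0.40, 0.440 without WT 1) or 5 erythroid markers (-0.12; Hba-a2 -0.15, 0.833). Of 11 Kupffer cell and monocyte markers tested, Cd14 had a log2 fold change of -4.77 (adjusted p = 0.0678). The 10 lymphocyte markers were all under the filter on low counts. Summed hepatocyte markers were at 65763 to 76514 CPM in KO and 48072 to 101801 CPM in WT, and summed stellate cell markers at 268 to 307 CPM in KO and 199 to 370 CPM in WT.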
